A study of Mus musculus with 12 samples.

Results

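A set of 10 genes that respond to androgen or to glucocorticoid were followed through RNA-seq of mouse prostate organoids. They are Sgk1, Ndrg1, Fkbp5, Tsc22d3, Zbtb16, Nedd4l, Pmepa1, Abcc4, Tmprss2 and Homer2 (listed as androgen targets), and all 10 were found by symbol among the 43243 gene names of each library. Receptors for these steroids are related transcription factors that move to the nucleus when they bind their hormone and can recognise the same palindromic DNA element. Many genes of prostate epithelium, among them several of these 10, answer to either hormone. SPOP is the substrate adaptor of a cullin ubiquitin ligase, is mutated in prostate cancer, and is known for marking steroid receptor coactivators for degradation. The list therefore bears on what a mutant SPOP does to steroid-responsive transcripts.

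The organoids were Matrigel cultures of digested mouse prostate cells in medium with EGF at 5 to 50 ng/ml. The SPOPmut group had 6 libraries of cells sorted for GFP. The SPOPwt group had 6 control libraries of cells passed through the sorter without selection, so mutation and selection cannot be told apart. Both groups carry the numbers S0 to S5, and since the protocols speak of pairs, libraries of the same number were taken as a pair. Per the protocols, the tamoxifen-inducible recombinase CreERT2 was switched on by 1 µM 4-hydroxytamoxifen overnight. Model A, with virally delivered CreERT2 and puromycin selection, gave 5 pairs, and model B, with a transgenic TMPRSS2-CreERT2 construct, gave 1 pair. No library label says which pair that is. The protocols name the allele F133V for a further Probasin-Cre line, but the labels of the sequenced libraries say only SPOPmut. The sources used here do not give the strain, the age of the mice or the steroid content of the medium. Nothing says that the 5 pairs of model A came from separate animals or cultures, so the p-values cover the spread among these libraries, which may be technical.

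Depth, estimated from the spacing of the lowest values, was 28270000 to 40980000 reads per library. Spop stood at 48.1 to 57.0 RPKM (reads per kilobase of transcript, scaled to the library's total) in SPOPmut, against 40.0 to 52.7 RPKM in SPOPwt. It was higher in SPOPmut in 6 of 6 pairs (limma adjusted p of 0.886), and since the alleles were not told apart it does not check the labels. Pair S5 stood apart from the other pairs in both groups. The mean log2(RPKM + 1) of 9 basal epithelial markers was 6.42 to 6.80 in S5, against 0.48 to 0.73 in S0 to S4. For 10 luminal markers it was 5.10 to 5.24 in S5 against 1.77 to 2.64 elsewhere. For 12 genes that mark fibroblasts and smooth muscle it was 0.23 to 0.33 in S5 against 3.97 to 5.43 elsewhere. Epcam, an epithelial adhesion protein, stood at 88.6 and 96.3 RPKM in S5 but did not exceed 1.28 RPKM in S0 to S4, where Col1a1, a collagen chain of fibroblasts, stood at 269 to 848 RPKM. All 12 libraries are labelled as prostate organoids, yet the basal markers and Epcam were low in S0 to S4. Proliferation genes were at 0.80 and 1.41 in S5 against 2.33 to 5.10 elsewhere. The part of these markers in the results that follow was not tested. Of the 6 endothelial markers the highest value was 0.83 RPKM (Cdh5, in the S3 mutant), and Pecam1 reached 0.45 RPKM. Of the 5 immune markers found, Cd68, a macrophage marker, stood at 2.13 to 4.74 RPKM in all 12 libraries, while Ptprc, the pan-leukocyte gene, was at 0.0019 RPKM or less. Pair S0 also stood apart: the SD over all tested genes of SPOPmut minus SPOPwt in log2(RPKM + 1) was 0.56 there, against 0.16 to 0.30 in the other pairs. Deviations from the group means correlated by 0.0602 between its libraries, against 0.753 to 0.954 in S1 to S5. The S0 mutant correlated best with the control of S1, and the S1 mutant with that of S2. Whether the S0 libraries are a true pair is therefore not known, which limits every difference read within S0. The smooth muscle genes Acta2 (107 RPKM in SPOPmut against 758 RPKM in SPOPwt) and Tagln (4.53 RPKM in SPOPmut against 41.4 RPKM in SPOPwt) differed in that pair. Both also differed in S4, in the other direction. Pairs S1 and S2 were the closest to each other in both groups, and may not be independent of each other.

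Promoter sequence was available from RefSeq (build GRCm38.p6) for 6 of the 10 genes, Sgk1, Fkbp5, Tsc22d3, Abcc4, Tmprss2 and Homer2, as 15 windows of 300 bases, 250 before and 50 after each annotated start. Ndrg1, Zbtb16, Pmepa1 and Nedd4l were not among them. The receptors' shared element was searched on both strands as the palindrome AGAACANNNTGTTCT and as the single hexamer AGAACA, whose reverse complement is TGTTCT and which forms each arm of the palindrome. The hexamer was present in 5 of the 15 windows, against 19.0% of all 32851 windows (6233). The palindrome was present in 1 of the 15, an Sgk1 start, and in 3 of the 32851 windows in all (0.00913%). A window with a match is shown for each gene that had one, in lower case with the matched letters in capitals, because these are the members whose promoter letters can be read beside their levels. A match describes the letters only, and windows without a match say nothing of more distant elements.
Sgk1, chr10:21993640-21993939, plus strand: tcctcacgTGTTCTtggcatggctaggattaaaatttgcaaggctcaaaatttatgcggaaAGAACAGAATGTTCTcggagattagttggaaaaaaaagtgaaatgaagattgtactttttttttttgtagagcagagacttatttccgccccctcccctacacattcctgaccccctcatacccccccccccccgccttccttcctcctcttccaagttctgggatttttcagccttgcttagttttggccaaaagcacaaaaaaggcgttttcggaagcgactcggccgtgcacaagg
Tsc22d3, chrX:140600473-140600772, minus strand: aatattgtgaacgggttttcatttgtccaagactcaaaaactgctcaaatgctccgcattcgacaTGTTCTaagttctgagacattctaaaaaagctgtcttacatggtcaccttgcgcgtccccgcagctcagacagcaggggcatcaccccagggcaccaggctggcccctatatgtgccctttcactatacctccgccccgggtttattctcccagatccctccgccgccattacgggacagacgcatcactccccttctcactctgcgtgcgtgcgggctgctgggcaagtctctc
Abcc4, chr14:118676882-118677181, minus strand: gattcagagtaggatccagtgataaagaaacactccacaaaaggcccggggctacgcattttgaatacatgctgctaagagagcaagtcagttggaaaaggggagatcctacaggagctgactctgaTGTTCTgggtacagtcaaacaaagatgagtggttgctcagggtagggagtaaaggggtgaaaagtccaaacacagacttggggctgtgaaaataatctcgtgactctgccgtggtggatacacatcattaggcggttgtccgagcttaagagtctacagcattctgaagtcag

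In the Sgk1 window the palindrome reads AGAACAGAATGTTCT and begins at -189 from the annotated start, with a further single hexamer at -242. The Tsc22d3 hexamer begins at -185 and the Abcc4 hexamer at -123. The other 2 windows with a hexamer belonged to other starts of Sgk1, at -195 and at -13.

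Sgk1, a serum- and glucocorticoid-regulated kinase of the AKT type, was the most abundant of the 10 per length. Its lowest, median and highest levels were 37.4, 65.6 and 80.1 RPKM in SPOPmut, against 37.8, 52.2 and 65.0 RPKM in SPOPwt. The groups overlapped, and within pairs the mutant was above its control in 5 of 6. The largest gap was in S0, at 64.8 RPKM in SPOPmut against 41.2 RPKM in SPOPwt. In S3 the levels were 37.4 RPKM in SPOPmut, against 37.8 RPKM in SPOPwt. The fitted difference was 0.28 in log2(RPKM + 1) units, with an SE of 0.091 and a 95% confidence interval of 0.074 to 0.49. That is 1.22-fold, with a limma adjusted p of 0.881 over the 13600 genes tested.

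Ndrg1 encodes a cytoplasmic protein that SGK1 phosphorylates, is induced by androgen in prostate cells and is also a known hypoxia and stress gene. It stood at 26.0, 28.1 and 37.1 RPKM in SPOPmut (lowest, median, highest) and at 18.1, 22.6 and 27.9 RPKM in SPOPwt. The groups overlapped only through the S3 control, the highest control, which stood above the lowest mutants, while every mutant lay above its own control. In the order S0 to S5, the SPOPmut libraries had 37.1, 28.9, 26.7, 29.1, 26.0 and 27.3 RPKM, against 22.5, 22.7, 23.1, 27.9, 20.7 and 18.1 RPKM in their SPOPwt partners. The difference was 0.37 with an SE of 0.093 and a 95% confidence interval of 0.15 to 0.58. That is 1.29-fold, with a limma adjusted p of 0.769. It is the member of smallest p, rank 71 of the 13600. Without pair S0, the pair of largest gap, it was 0.30 (limma adjusted p of 0.491).

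Fkbp5, a co-chaperone that binds the steroid receptor complex with HSP90 and is itself induced by both hormones, stood at 1.72, 24.1 and 30.3 RPKM in SPOPmut, against 1.56, 22.1 and 27.0 RPKM in SPOPwt. Every mutant exceeded its control, but by little, with ratios of 1.12 in S0, 1.20 in S1, 1.12 in S2, 1.00 in S3, 1.05 in S4 and 1.10 in S5. The difference was 0.12 (SE 0.060, limma adjusted p of 0.887). What varied was the pair: the mean of a pair ran from 1.64 RPKM in S5 to 28.6 RPKM in S0, a ratio of 17.5. The SD of the log2 pair means was 15.3 times the SD of the within-pair differences, against a median of 1.41 over all tested genes.

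**Figure D1:**
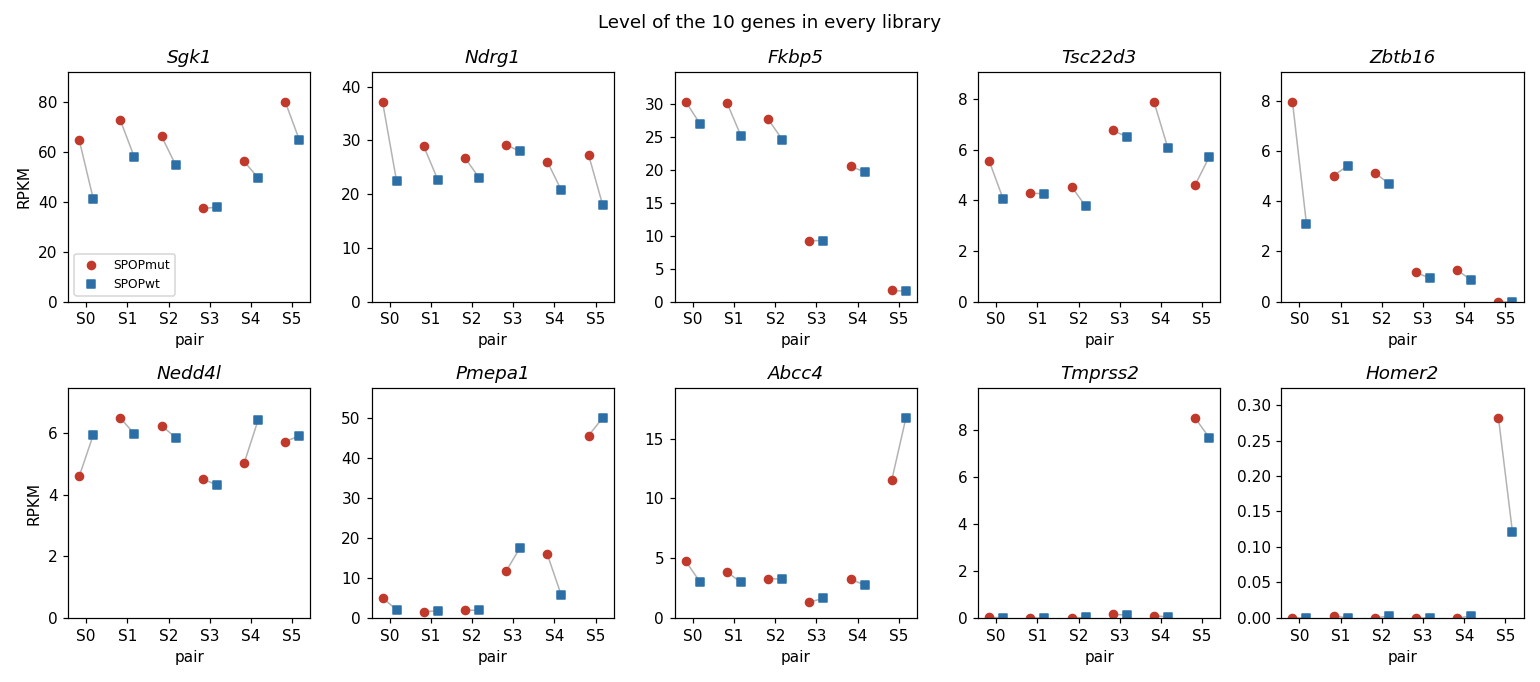
RPKM (vertical axes from 0, a scale of its own for each gene) of the 10 genes in all 12 libraries, by pair S0 to S5; red circles are SPOPmut, blue squares SPOPwt, and grey lines join the members of a pair. Fkbp5 and Zbtb16 are lowest in S5, Pmepa1, Abcc4, Tmprss2 and Homer2 are highest there, and every Ndrg1 circle lies above its own square.

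Tsc22d3 encodes GILZ, a leucine zipper protein induced by glucocorticoid that restrains inflammatory transcription. It stood at 4.29, 5.09 and 7.90 RPKM in SPOPmut, against 3.78, 4.99 and 6.52 RPKM in SPOPwt, with wide overlap. It was higher in the mutant in 5 pairs and lower in S5 (4.62 RPKM in SPOPmut against 5.72 RPKM in SPOPwt), and the difference was 0.12 (SE 0.093, limma adjusted p of 0.887). It was 0.069 without S0, 0.078 without S4 and 0.20 without S5. The pairs S3 and S4 held the 4 highest values, 6.06 to 7.90 RPKM.

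Zbtb16, the zinc finger repressor PLZF and a strong glucocorticoid and androgen target, was listed at 0 RPKM in both S5 libraries. In S0 to S4 the SPOPmut libraries stood at 7.97, 5.03, 5.14, 1.16 and 1.25 RPKM and their SPOPwt partners at 3.09, 5.41, 4.70, 0.93 and 0.87 RPKM, in the order S0 to S4. S0 to S2 thus lay above S3 and S4 in both groups. The mutant exceeded its control in 4 pairs and lay below it in S1. The S0 ratio of 2.58 was the largest, and the fitted difference of 0.26 (SE 0.15, limma adjusted p of 0.887) was 0.090 without S0.

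Nedd4l is a ubiquitin ligase that removes sodium channels and SMAD proteins and is inhibited by SGK1 phosphorylation. Its S5 levels, 5.72 and 5.90 RPKM, lay within the range of S0 to S4, 4.31 to 6.48 RPKM. In SPOPmut it stood at 4.50, 5.37 and 6.48 RPKM and in SPOPwt at 4.31, 5.92 and 6.41 RPKM. The mutant was above its control in S1, S2 and S3 and below it in S0, S4 and S5. The difference was -0.070 (SE 0.081, limma adjusted p of 0.900), and -0.021 without S0 and -0.023 without S4.

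Pmepa1, a membrane protein that androgen and TGF-beta induce and that recruits NEDD4-type ligases, differed between pairs in both directions. In S0 it stood at 5.02 RPKM in SPOPmut against 2.04 RPKM in SPOPwt, and in S4 at 15.9 RPKM in SPOPmut against 5.61 RPKM in SPOPwt. The S3 pair went the other way, at 11.7 RPKM in SPOPmut against 17.6 RPKM in SPOPwt. In S1, S2 and S5 the mutants had 1.56, 1.97 and 45.5 RPKM, against 1.76, 1.87 and 49.9 RPKM in the SPOPwt libraries. The mean of 0.27 (SE 0.24, limma adjusted p of 0.887) was 0.12 without S0, 0.050 without S4 and 0.43 without S3. Pair S0 and pair S4 were also those in which the TGF-beta response list had its highest medians, 0.79 and 0.69, and S3 that with the lowest, -0.41. Its part in the Pmepa1 values was not tested.

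Abcc4, a transporter that exports cyclic nucleotides and prostaglandins, stood at 1.32, 3.56 and 11.6 RPKM in SPOPmut, against 1.64, 3.002 and 16.7 RPKM in SPOPwt. The mutant was higher in S0, S1, S2 and S4 and lower in S3 and S5, and the difference was 0.052 (SE 0.13, limma adjusted p of 0.942). Leaving out S0 turned it to -0.039, and it ran from 0.0065 to 0.16 with another pair left out.

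Tmprss2, a membrane serine protease of luminal cells whose promoter is androgen-driven and also names the model B construct, was nearly confined to S5. There it stood at 8.50 RPKM in SPOPmut against 7.67 RPKM in SPOPwt, while the other 10 libraries reached 0.15 RPKM. Homer2, a scaffold of glutamate receptor and calcium signalling, had 0.28 RPKM in SPOPmut against 0.12 RPKM in SPOPwt of S5 and reached 0.0027 RPKM elsewhere. For Homer2 that is about 120 reads in the mutant and 62 in the control by the depth estimate, from 1 pair. Neither gene reached an RPKM of 1 in 6 libraries, so neither entered the genotype test.

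Of the 8 genes tested, 0 passed an adjusted p of 0.05 in limma, as did 0.0% of all genes. At an unadjusted p under 0.05 there were 2, Ndrg1 and Sgk1, both higher in SPOPmut, against 5.6% of all genes, of which 3.82% were higher and 1.77% lower. Higher in all 6 pairs were 2 (Ndrg1 and Fkbp5), against 3.62% of all genes, and lower in all 6 were 0, against 1.68%. Higher in at least 5 of 6 were 4 (with Sgk1 and Tsc22d3), against 15.6%. The fitted difference was above 0 for 7 of the 8, against 50.2% of all genes. Their median was 0.19, beside 0.00055 over all genes. That median was 0.10 without S0 and 0.11 without S4. In S0 the difference was the largest of the 6 pairs for 6 of the 8, against 54.7% of all genes. By pair, 7 of the 8 were higher in SPOPmut in S0, 6 in S1, 8 in S2, 5 in S3, 7 in S4 and 3 in S5. Of all genes 49.2% were higher in S0, 58.9% in S1, 65.7% in S2, 51.3% in S3, 42.0% in S4 and 49.5% in S5. The SPOPmut library of S0 also differed from its control in proliferation genes (mean log2 level of 6 genes 4.29 in SPOPmut against 4.92 in SPOPwt) and in luminal markers (2.64 in SPOPmut against 1.98 in SPOPwt). Marker differences were not confined to S0. Higher in SPOPmut in all 6 pairs were 2 of 5 tested luminal markers and 3 of 9 tested fibroblast and smooth muscle markers. In both lists 0 were lower in all 6. The luminal marker Krt8 was higher by 1.09 (SE 0.23, limma adjusted p of 0.769), and by 0.89 without S0. The part of cell type markers and proliferation genes in the members' differences was not tested.

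**Figure D2:**
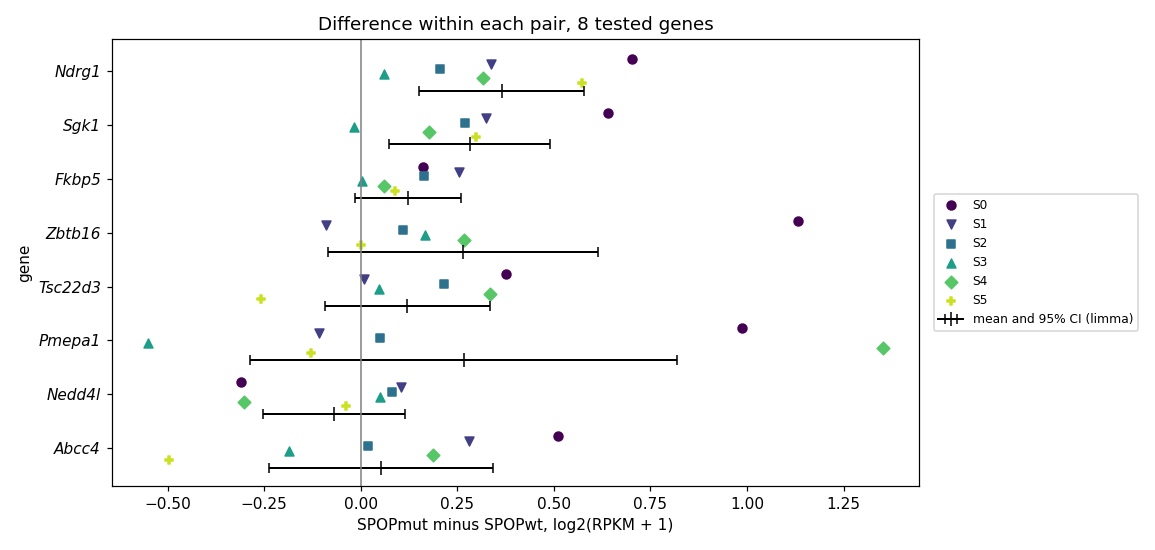
SPOPmut minus SPOPwt on the log2(RPKM + 1) scale (horizontal axis) for the 8 tested genes, with a marker for each of the 6 pairs and, below them, the limma mean with its 95% confidence interval as a black bar. All 6 Ndrg1 markers lie right of 0, the intervals of Ndrg1 and Sgk1 alone stay clear of 0 before adjustment, and Pmepa1 spreads from -0.55 in S3 to 1.35 in S4.

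Between S5 and the other pairs the 10 genes split. S5 was set apart with earlier results of these data known and is 1 pair, so its levels are a description without a test. A gene was counted where both S5 libraries lay outside the range of the other 10 and the mean log2(RPKM + 1) differed by at least 1, that is about 2-fold. Higher in S5 were Pmepa1 and Abcc4, and lower were Fkbp5 and Zbtb16. That is 4 of the 8 genes tested, against 20.3% of all tested genes (6.6% higher and 13.7% lower). Zbtb16, at 0 RPKM in both S5 libraries, passed the filter of 6 libraries through S0 to S4 alone. Its place among the lower genes therefore adds nothing to the count. That filter can be passed through S0 to S4 alone but not through the 2 libraries of S5. The shares over all genes are tilted towards lower in the same way. With a filter of an RPKM of 1 in at least 2 libraries, 23.2% of all genes were counted (10.8% higher and 12.4% lower). Tmprss2 then entered, but it passed that filter through its S5 libraries alone, so its place among the higher genes was fixed by the filter and adds nothing to the count.

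Pmepa1 averaged 47.7 RPKM in S5 against 6.49 RPKM in S0 to S4, a ratio of 7.35. Abcc4 averaged 14.1 RPKM against 3.01 RPKM, a ratio of 4.71, and Tmprss2 8.09 RPKM against 0.045 RPKM. Fkbp5 averaged 1.64 RPKM in S5 and 22.3 RPKM in S0 to S4, so that S0 to S4 lay 13.7-fold above S5. Sgk1 (65.0 and 80.1 RPKM in S5, 37.4 to 72.6 RPKM elsewhere), Ndrg1, Tsc22d3 and Nedd4l overlapped. By pair mean, Fkbp5 was ordered S0, S1, S2, S4, S3, S5. The first 3 pairs overlapped in their libraries (24.6 to 30.3 RPKM), while S4 (19.6 and 20.5 RPKM), S3 (9.24 and 9.26 RPKM) and S5 did not overlap with any other pair. In Pmepa1 the order was S5, S3, S4, S0, S2, S1, with S3 and S4 overlapping, and S1 and S2 between 1.56 and 1.97 RPKM. In bulk samples, fewer cells of a type and less RNA per cell cannot be told apart.

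**Figure D3:**
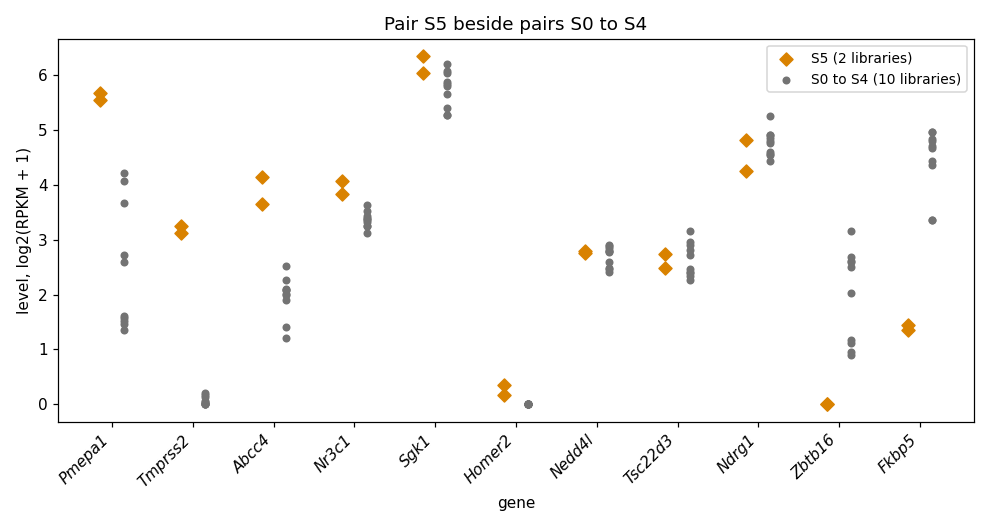
Level in log2(RPKM + 1) (vertical axis) of the 10 genes and of the receptor gene Nr3c1 in the 2 libraries of S5 (orange diamonds) and the 10 libraries of S0 to S4 (grey dots), ordered by the difference of means. Pmepa1, Tmprss2 and Abcc4, and by less Nr3c1 and Homer2, lie above all other libraries in S5. Zbtb16 and Fkbp5 lie below them, while Sgk1, Nedd4l, Tsc22d3 and Ndrg1 overlap.

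Nr3c1, the glucocorticoid receptor, stood at 13.2 and 15.8 RPKM in S5 against 7.74 to 11.4 RPKM in S0 to S4, a ratio of 1.55. The part of Nr3c1 in the S5 levels of the members was not tested. Nr3c2, the mineralocorticoid receptor, was at 0.41 RPKM or less and Pgr, the progesterone receptor, at 0.0031 RPKM or less. Between genotypes Nr3c1 differed by 0.059 (SE 0.096), with a limma adjusted p of 0.922. Without S0 it was 0.13, and without S1 -0.0059. Of the steroid enzymes, Srd5a1, a reductase that makes dihydrotestosterone, stood at 36.8 and 37.7 RPKM in S5 against 1.62 to 5.07 RPKM elsewhere, and differed by -0.11 (SE 0.071) between genotypes. Hsd11b1, which regenerates active glucocorticoid, stood at 0.086 and 0.14 RPKM in S5. It was also low in S0 to S2 (0.17 to 0.59 RPKM) and stood at 3.95 to 4.51 RPKM in S3 and S4.

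The genotype difference itself was set against S5 with an interaction term, in which S5 is assumed to vary like the other pairs. Of the 8 genes, 0 passed an adjusted p of 0.05 in limma, against 0.0294% of all genes, and 1 had an unadjusted p under 0.05, against 8.3%. That 1 was Abcc4, whose difference was -0.50 in S5 and on average 0.16 in S0 to S4 (S5 minus the rest -0.66, SE 0.26, limma adjusted p of 0.580). For Tsc22d3 the values were -0.26 and 0.20 (-0.45, SE 0.20, limma adjusted p of 0.616). For Ndrg1 they were 0.57 and 0.32, and the interval of their difference ran from -0.34 to 0.83. For Sgk1 they were 0.30 and 0.28, with an interval of -0.57 to 0.61. An exact permutation of 1 pair among 6 could not go below p = 0.167.

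Other steroid-responsive genes were read from lists of textbook targets. Of 25 further androgen response genes, 16 were tested and 0 passed, with 11 higher and 5 lower on average (50.2% of all genes were higher) and a median of 0.061, which was 0.044 without S0 and 0.095 without S4. Abhd2 (0.25, SE 0.12) and Ell2 (0.15, SE 0.092) had the smallest p among the higher, and Stk39 (-0.20, SE 0.10) and Tpd52 (-0.058, SE 0.063) among the lower, each at a limma adjusted p of at least 0.887. Without S0, Abhd2 was at 0.13 and Ell2 at 0.087. Of the genes that mark differentiated prostate, Pbsn and Msmb, both secreted proteins, were listed at 0 in all 12 libraries.

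Of 20 further glucocorticoid response genes, 16 were tested, and 0 passed in limma. Their median difference was 0.21, with 14 higher and 2 lower on average, 3 at an unadjusted p under 0.05 and 2 higher in all 6 pairs. Over all genes, 50.2% were higher on average, 5.6% had an unadjusted p under 0.05 and 3.62% were higher in all 6 pairs. Rgs2, a brake on G protein signalling, was higher by 0.49 (SE 0.15), at 0.51, 15.03 and 23.2 RPKM in SPOPmut, against 0.13, 9.25 and 15.3 RPKM in SPOPwt (lowest, median, highest). Klf15, a zinc finger factor of glucocorticoid-driven metabolism, was higher by 0.43 (SE 0.14), and both had a limma adjusted p of 0.881. Rgs2 and Klf15 were also the 2 that were higher in all 6 pairs. In S5, however, Klf15 stood at 0.012 RPKM in SPOPmut against 0.0097 RPKM in SPOPwt, too low for its direction there to count. Without S0, Rgs2 was at 0.31 and Klf15 at 0.32. On the lower side, Glul (-0.076, SE 0.16) and the phosphatase gene Dusp1 (-0.011, SE 0.16) had intervals around 0 and changed sign with a pair left out. The metallothionein gene Mt2, the most abundant, averaged 518 ± 285 RPKM in SPOPmut, against 423 ± 232 RPKM in SPOPwt (SD, n = 6 each), and its difference of 0.33 (SE 0.27) was 0.098 without S0.

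The glucocorticoid list differed most in S0, where all 16 tested genes were higher in SPOPmut, against 49.2% of all genes, with a median of 1.26. Some luminal markers differed in other pairs too, but this is the pair that stood apart in its spread over all genes and in the mean of the luminal list. Proliferation genes, Acta2 and Tagln also differed between its libraries, but not there alone. Proliferation genes were lower in SPOPmut by nearly as much in S5 and higher in S3, and Acta2 and Tagln were higher in SPOPmut in S4. The part of these genes in the list's values was not tested. In S0 the 8 members had a median of 0.58 and the 16 androgen response genes 0.12. Mt2 stood there at 861 RPKM in SPOPmut against 304 RPKM in SPOPwt, and Rgs2 at 23.2 RPKM in SPOPmut against 8.37 RPKM in SPOPwt. In the other pairs the list's median ran from -0.26 in S4 to 0.20 in S1. Its fitted median was 0.024 without S0 and 0.31 without S4. In S5, 8 of the 16 tested genes were below and 1 above S0 to S4 by the rule given for levels, against 13.7% and 6.6% of all tested genes. Klf15 stood at 0.0097 and 0.012 RPKM in S5 against 2.35 to 6.35 RPKM elsewhere, Rgs2 at 0.13 and 0.51 RPKM against 7.55 to 23.2 RPKM, and Mt2 at 39.5 and 58.5 RPKM against 304 to 861 RPKM. Klf15, Rgs2 and Crispld2 were under an RPKM of 1 in S5. They passed the filter through S0 to S4 alone, so their place adds nothing to the 8. Cdkn1c, above in S5 (2.31 and 6.23 RPKM against 2.13 RPKM or less), did not pass the filter. Over all 20 listed genes 8 were below and 2 above. Of the 16 tested androgen response genes 2 were below and 3 above, and of the 13 tested paralogs 0 were below and 0 above. Genes confined to S5 could not pass the filter. Over all 25 androgen response genes 2 were below and 4 above, with Aldh1a3 (10.8 and 12.6 RPKM in S5, 1.76 RPKM or less elsewhere). Over all 16 paralogs 0 were below and 1 above, Tmprss4 (11.4 and 7.91 RPKM in S5, 0.041 RPKM or less elsewhere).

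**Figure D4:**
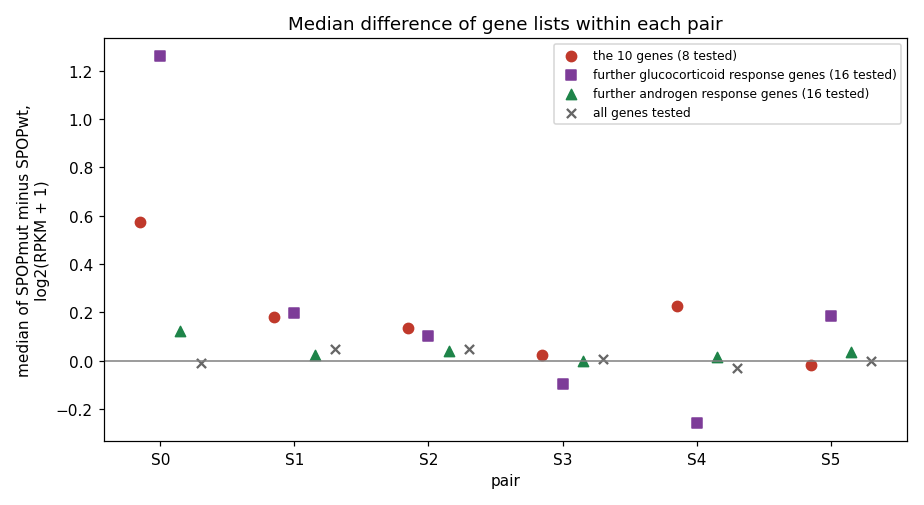
Median of SPOPmut minus SPOPwt on the log2(RPKM + 1) scale (vertical axis) over the tested genes of 3 lists and over all genes tested, by pair. The glucocorticoid list reaches 1.26 and the 8 members 0.58 in S0, while all genes together stay between -0.030 and 0.049.

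Relatives of the members were read in the same way: of 16 paralogs 13 were tested, and 0 passed in limma. On average 10 were higher and 3 lower, against 50.2% higher over all genes, and the median was 0.094. At an unadjusted p under 0.05 in limma 3 were higher, against 3.82% of all genes. Higher in all 6 pairs was 1, against 3.62%. Ndrg3, a homolog of Ndrg1, was higher in 6 of 6 pairs by 0.17 (SE 0.059) and Tsc22d1, a homolog of Tsc22d3, in 5 of 6 by 0.31 (SE 0.12), at limma adjusted p-values of 0.881 and 0.886. Without S0 they were at 0.16 and 0.18. The transporter gene Abcc1 (-0.15, SE 0.080) and Fkbp4, the co-chaperone that promotes receptor signalling where FKBP5 restrains it (-0.21, SE 0.16), were lower on average. Fkbp4 was higher in S1, S2 and S3, and without S0 it was at -0.041 and Abcc1 at -0.092. Nedd4, at 115 ± 32.0 RPKM in SPOPmut, against 105 ± 21.9 RPKM in SPOPwt (SD, n = 6 each), was the most abundant per length. Sgk3 stood at 0.78 RPKM or less and Sgk2 at 0.17 RPKM or less, below Sgk1 in every library. Of the 12 hypoxia genes 11 were tested and 0 passed in limma, with 4 higher and 7 lower on average (50.2% of all genes were higher). Their median was -0.088, which was -0.056 without S0. At an unadjusted p under 0.05 in limma 2 were lower, against 1.77% of all genes. Lower in all 6 pairs were 2, against 1.68%. The part of hypoxia in the Ndrg1 values was not tested. Ero1l, an oxidoreductase of the endoplasmic reticulum, was lower in 6 of 6 pairs (-0.34, SE 0.085, limma adjusted p of 0.769), as was the kinase gene Pdk1 (-0.18, SE 0.059, limma adjusted p of 0.881). P4ha1, the most abundant of them, differed by -0.088 (SE 0.11), and Kdm3a (0.14, SE 0.12) and Adm (0.12, SE 0.22) were the higher ones of smallest p. Without S0, P4ha1 was at 0.019 and Kdm3a at 0.0068. Adm was at -0.089 without S1 and at 0.32 without S4. Of the 10 TGF-beta response genes 9 were tested and 0 passed in limma, with 6 higher and 3 lower on average (50.2% of all genes were higher). Their median was 0.16, which was 0.031 without S0 and 0.043 without S4. Ltbp2 (0.25, SE 0.11) and Tgfbi (0.50, SE 0.27) led the higher, Bhlhe40 (-0.057, SE 0.11) and Id1 (-0.042, SE 0.20) the lower, and Ctgf was the most abundant, with 0.11 (SE 0.26). Without S0, Tgfbi was at 0.18, and without S4 Ltbp2 was at 0.17. Bhlhe40, Id1 and Ctgf changed sign with a pair left out.

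In GRCm38 the genes lie on separate chromosomes. Sgk1 is on chromosome 10 (21882184 to 21999903, plus strand), Ndrg1 on 15 (66929318 to 66969640, minus), Fkbp5 on 17 (28399094 to 28517527, minus) and Tsc22d3 on X (140539528 to 140600659, minus). Zbtb16 is on 9 (48654297 to 48836222, minus), Nedd4l on 18 (64887705 to 65217828, plus), Pmepa1 on 2 (173224458 to 173276533, minus) and Abcc4 on 14 (118482692 to 118706219, minus). Tmprss2 is on 16 (97564682 to 97611195, minus) and Homer2 on 7 (81600481 to 81707527, minus). All are protein-coding. Ndrg1, Fkbp5, Nedd4l, Homer2 and Abcc4 overlap small or antisense genes of the annotation, and since the kit does not mark strand, reads of these cannot be told from theirs.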

How the data were processed

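RNA of 6 SPOPmut and 6 SPOPwt libraries was made with the TruSeq RNA kit and read as 51-base pairs, per the labels' protocols. The authors deposited 1 RPKM value per gene and library, with no counts; per the submitters' processing notes, the aligner STAR (2.4.0j) and builds named mm10 and GRCm38 were involved. The sources used here do not give the counting program or annotation. RPKM is relative to a library's other genes, and the values summed to 316623 to 358260 per library.

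Values were analysed as log2(RPKM + 1), which understates changes of low genes. A gene was tested where 6 or more of the 12 libraries reached an RPKM of 1, which kept 13600 genes and 8 of the 10 members. limma 3.58.1 in R 4.3.3 fitted pair and genotype, with a trended, robust variance prior; its two-sided p-values, Benjamini-Hochberg adjusted over all tested genes, were called under 0.05. The difference of S5 from the other pairs was an interaction term. The fit was tested on simulated data. Python 3.11.15, pandas 2.3.3, numpy 2.4.6 and matplotlib 3.10.9 did the rest.

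The pairing rests on protocols that speak of pairs and on the shared numbers S0 to S5. Depth was estimated from the step of low values and exon lengths of GENCODE M21, which held 91.2% of the names. Only 39.6 to 42.6% of values of up to 20 reads lay within 0.04 reads of a step of 0.5, so whole reads were not recovered and no count test was run. To look for duplicate libraries, a chi-square per gene was taken between libraries of a group. Its lowest median, 1.19 for SPOPwt S1 and S2, and that of SPOPmut S1 and S2, 1.99, lay above the 0.455 of sampling alone, and none were merged. The next lowest was 7.13, so S1 and S2 were far closer to each other than any other libraries of a group.

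The members and lists were chosen with earlier results of these data known. Named were all members, receptor genes, in each list the 2 tested genes of smallest p in each direction and the most abundant, and cell type markers. Other genes were chosen after their values were seen. They are Pbsn, Msmb, Hsd11b1, Sgk2, Sgk3, Crispld2, Cdkn1c, Aldh1a3, Tmprss4, and among the markers Cdh5, Cd68, Acta2 and Tagln. Some genes that this rule names are not reported here. Alternatives were other pseudocounts, filters and scalings, a fit without the pair, pair weights, and each pair left out.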

Additional observations from a re-analysis of the deposited data

Results flagged for a closer look

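Within each group of 6, the highest or lowest library stood apart from the others in 10 instances, where chance flags about 1 group in 20 and 20 groups were looked at. Of these, 8 were S5 libraries. They were Pmepa1 (45.5 RPKM in SPOPmut and 49.9 RPKM in SPOPwt), Abcc4 (11.6 RPKM in SPOPmut, 16.7 RPKM in SPOPwt), Tmprss2 (8.50 RPKM in SPOPmut, 7.67 RPKM in SPOPwt) and Homer2 (0.282 RPKM in SPOPmut, 0.121 RPKM in SPOPwt), each the highest of its group. The other two were the Ndrg1 level of the S0 mutant, the highest SPOPmut library at 37.1 RPKM, and the Nedd4l level of the S3 control, the lowest SPOPwt library at 4.31 RPKM.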

How the results depend on the processing

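With each alternative, the count of members passing an adjusted p of 0.05 between SPOPmut and SPOPwt stayed at 0, including the fit without the replicate block (0 members and 0 of all genes; 1 member and 29 genes at an unadjusted p under 0.05, against 2 members and 761 genes with the block; Ndrg1 adjusted p of 1.00) and each pair left out (0 to 0 for members and 0 to 0 for all genes). Pair weights passed 9 of all genes (7 higher, 2 lower) and 0 members, with an adjusted p of 0.115 for Ndrg1 (difference 0.24) and 0.131 for Sgk1 (0.22). Over 15 alternatives Ndrg1 ran from 0.23 to 0.43, Sgk1 from 0.19 to 0.34 and Fkbp5 from 0.095 to 0.15. Abcc4 turned to -0.039 without S0, and Nedd4l to 0.016 with pair weights. The S5 interaction passed 0 members except without a filter on low values, where it passed 1, Homer2 (difference 0.19). That gene was at 0.0027 RPKM or less in S0 to S4, so those pairs had almost no spread to set S5 against. Nearly any difference in S5 would then pass, so no conclusion is drawn from this call. With each of S0 to S4 left out, the interaction passed 0 to 0. The level rule for S5 counted 4 members (4 to 4 with a pair of S0 to S4 left out), except 5 where the filter was looser or absent. The fifth, Tmprss2, entered through its S5 libraries alone, so that count was fixed by the filter. Zbtb16, among the 4, passed the main filter through S0 to S4 alone. RPKM without recovered reads gives no counting interval, and S5 is a single pair. The labels do not state what the number shares. Deviations from the group means correlated within pairs by 0.753 to 0.954 in S1 to S5 but by 0.0602 in S0, and the mutants of S0 and S1 each correlated best with the control of another number.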
